A study of Petunia x hybrida with 48 samples.

Results

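Axillary bud 6 was compared with axillary bud 2 in petunia plants that stayed in high phosphate (high P) throughout. Both buds sit on the main stem of the same standard laboratory line (Petunia hybrida, inbred line V26). Bud 6 is an apical bud that usually grows into a branch, and bud 2 is a basal bud that usually stays small. The sample labels alone decided which libraries the comparison took, 6 of the 48 of the series: 3 of bud 6 and 3 of bud 2. The comparison itself was chosen with earlier results of these data known. The plants had been raised in hydroponic solution with 250 µM phosphate and were moved to fresh solution of the same strength 24 h before the buds were cut. Each library was made from buds pooled over several plants. The study does not state whether the pools of both positions came from the same plants. It reports too few plants for separate plants at each position, so pools of different positions shared plants at least in part. The main test does not pair them, and a fit with the replicate number as a block is given further on. Buds 6 and 2 differ in node, age, size and growth at the same time, so these cannot be told apart. Buds 3 and 7 of the same high P plants, plants moved to 5 µM phosphate (low P), and a later experiment that started from low P and is called experiment 3 are given beside the main comparison.

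An axillary bud forms in the angle between a leaf and the stem and holds its own meristem with leaf primordia. It can pause with little cell division and later resume growth into a branch. A bud that grows must replicate DNA, package it with newly made histones, divide, and make ribosomes to supply protein. A paused bud is known in several species for transcripts linked to abscisic acid (ABA), stress, sugar shortage and storage.

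The 6 libraries separated by bud. The deposited values are read counts per gene that the authors normalized, called normalized counts here. Their sums, which normalization itself brings together, were between 41982169 and 44920795 in a bud 6 library, against 43081001 to 46381919 in a bud 2 library. Between 24574 and 24824 genes were above 0 in a bud 6 library, against 25555 to 26107 in a bud 2 library. Pearson correlation over all genes tested was at least 0.981 between bud 6 libraries and at least 0.976 between bud 2 libraries, and no more than 0.832 between a library of each bud. Normalized counts are not per transcript length, so a highest mean in a list says only which gene was picked to be named.

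Genes were called where the difference passed 2-fold and limma's adjusted p was under 0.05 (Benjamini-Hochberg adjustment). The test ran over the 22363 genes that averaged 10 normalized counts or more. By this rule 3735 genes (16.7%) were higher in bud 6 and 5248 (23.5%) were lower. The median difference over all genes tested was -0.06 on the log2 scale. Large differences were uneven in direction: 101 genes (0.452%) were more than 16-fold higher in bud 6, whereas 963 genes (4.31%) were more than 16-fold lower. At more than 64-fold the counts were 9 and 261. Under quantile normalization, which forces the same distribution on every library and moved the median by 0.189, the split at 2-fold turned to 4948 higher (22.1%) and 4250 lower (19.0%), so that 53.8% of the called genes were higher in place of 41.6%. More genes were still lower than higher at more than 16-fold under that setting, 553 against 216. All 3 bud 6 libraries lay above all 3 bud 2 libraries in 8264 genes (37.0%) and below them in 8955 genes (40.0%).

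**Figure D1:**
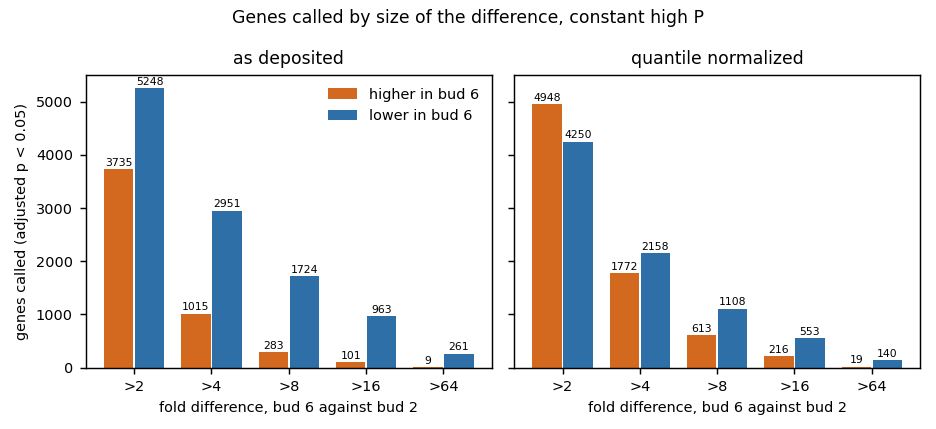
Number of genes called at more than 2-, 4-, 8-, 16- and 64-fold, higher (orange) and lower (blue) in bud 6 than in bud 2, with the deposited values on the left and after quantile normalization on the right. At more than 16-fold, 101 genes were higher and 963 lower on the left, against 216 and 553 on the right.

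The genes called higher in bud 6 held 27.8%, 31.6% and 30.7% of normalized counts in the 3 bud 6 libraries, against 9.58%, 10.8% and 9.65% in the 3 bud 2 libraries. The genes called lower held 7.47%, 5.79% and 6.06% of normalized counts in the 3 bud 6 libraries, against 28.2%, 26.5% and 27.2% in the 3 bud 2 libraries. These sets were chosen by the difference itself, so their shares are a description. The genes not called held 63.5% on average in bud 6 and 62.7% in bud 2.

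The named groups below are 36 lists of genes with 779 different members, picked by description from tables of other contrasts of this study. Those contrasts were low against high phosphate in experiment 3 and bud 3 of experiment 1 against bud 3 of experiment 3. The last one sets a small bud 3 beside a growing one, so genes that follow bud growth were more likely to be listed, and the lists are no sample of all genes of a pathway. Counts in a list are read beside the 16.7% higher and 23.5% lower of all genes tested. A lack of overlap in a gene is read beside the 37.0% above and 40.0% below of all genes tested. Gene identifiers are those of the Petunia axillaris genome with the assembly prefix left out. In excised buds, fewer cells of a type and less RNA per cell cannot be told apart.

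**Figure D2:**
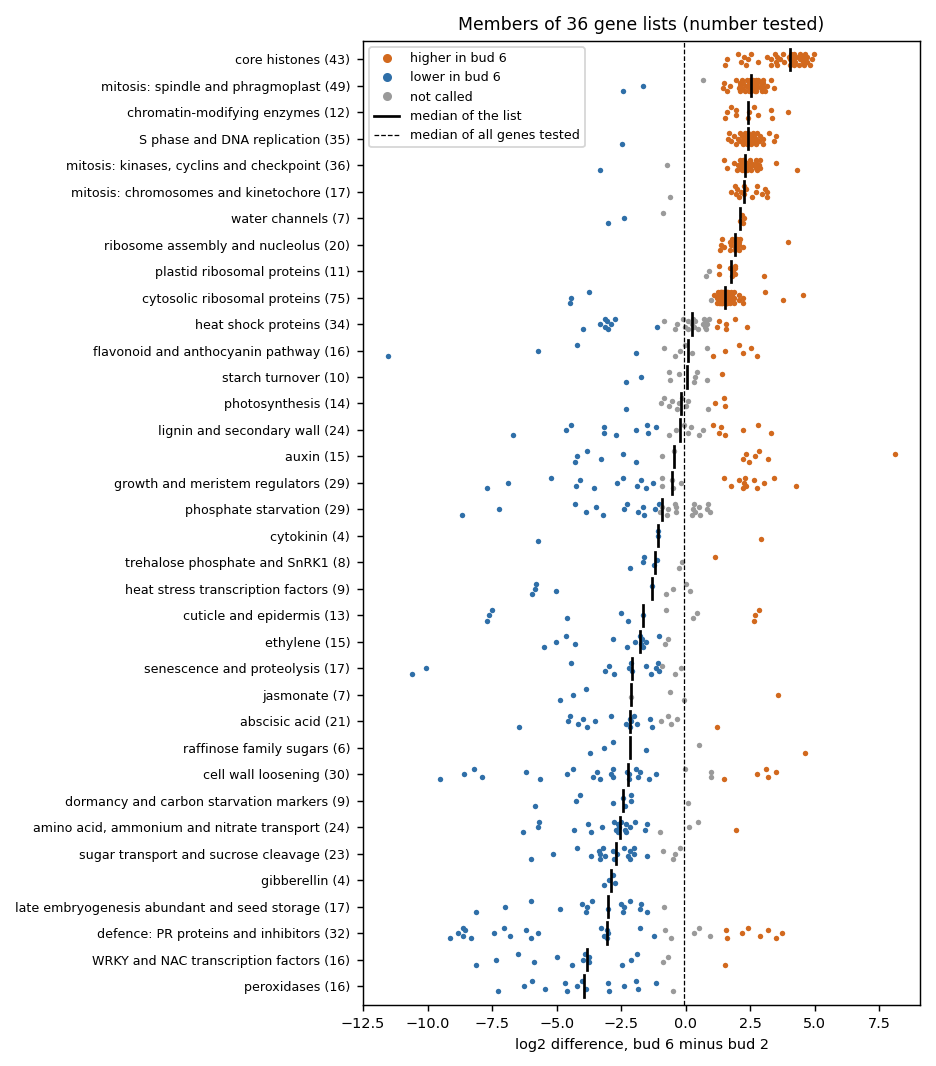
Log2 difference between bud 6 and bud 2 for each tested member of the 36 lists, 1 row per list with the number tested in brackets, ordered by median (black bar). Orange points were called higher in bud 6, blue points lower, and grey points were not called. Core histones have a median of 4.06 and peroxidases one of -3.93, and the dashed line marks the median of all genes tested, -0.06.

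Genes of DNA replication were higher in bud 6, with 34 of 35 members called higher, 1 called lower and a median of 2.43. DNA topoisomerase 2 (Scf00744g00349.1), which untangles replicated chromosomes, had 18492, 21501 and 22576 normalized counts in bud 6, against 1542, 2354 and 1627 in bud 2. All 3 bud 6 libraries were above the bud 2 libraries, with a log2 difference (bud 6 minus bud 2, ± SE) of 3.52 ± 0.18 (adjusted p = 4.22e-12). The DNA-binding subunit B of replication protein A (Scf00201g00330.1), which coats single-stranded DNA, had 11393, 14924 and 13081 normalized counts in bud 6, against 1089, 1377 and 1194 in bud 2. The 1 member called lower, named after its values were seen, was annotated dCTP pyrophosphatase 1 (Scf00392g00728.1), an enzyme class that clears nucleotides from the precursor pool. It had 70.2, 81.0 and 44.0 normalized counts in bud 6, against 298, 489 and 292 in bud 2.

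Core histones, the proteins around which DNA is wound, stood furthest from all genes tested. All 43 members were called higher, with a median of 4.06 and a range from 1.51 to 4.98. The member with the highest mean, histone H2A 12 (Scf00406g00232.1), had 47159.8, 65517 and 58152 normalized counts in bud 6, against 3207, 4536 and 4721 in bud 2. The 3 libraries of each bud did not overlap, and the difference was 3.78 ± 0.21 (adjusted p = 1.27e-11). A second histone gene (Scf01018g00016.1) had 6377, 9293 and 9047 normalized counts in bud 6, against 184, 285 and 392 in bud 2. Together the 43 genes held 1.25%, 1.70% and 1.48% of normalized counts in the 3 bud 6 libraries, against 0.107%, 0.152% and 0.146% in the 3 bud 2 libraries, a ratio of 11.0. An exact two-sided permutation test on such a share cannot go below p = 0.1 with 3 against 3 libraries, and it gave 0.1 here. Histone genes are near-identical copies, so the split of reads among them is uncertain, while the sum is less affected.

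Genes of mitosis were higher in bud 6 as well. Among kinases, cyclins and checkpoint genes 34 of 36 were called higher and 1 lower (median 2.31), among chromosome and kinetochore genes 16 of 17 were called higher (2.27), and among spindle and phragmoplast genes 46 of 49 were called higher and 2 lower (2.55). A D3-type cyclin (Scf00003g02442.1), a class that drives entry into the cell cycle, had 1293, 1672 and 1779 normalized counts in bud 6, against 60.9, 92.7 and 83.8 in bud 2. An A3-type cyclin (Scf00848g00318.1) had 1352, 1949 and 1839 normalized counts in bud 6, against 123, 198 and 137 in bud 2. CDC20.1 (Scf00815g00251.1), the activator of the complex that starts chromosome separation, had 22465, 26106 and 25147 normalized counts in bud 6, against 3144, 5204 and 3799 in bud 2, a difference of 2.63 ± 0.18 (adjusted p = 1.5e-10). Each of these genes had no overlap between the buds.

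Structural genes of division were called higher too, with few exceptions. The condensin subunit SMC2 (Scf00241g00034.1), which compacts chromosomes, averaged 7091 ± 817 normalized counts in bud 6 and 794 ± 134 in bud 2 (SD, n = 3 each). Tubulin beta chain 2 (Scf01058g00167.1), a building block of the spindle, had 8081, 11082 and 10798 normalized counts in bud 6, against 684, 1127 and 1027 in bud 2. The bundling protein MAP65-5 (Scf00220g00233.1) averaged 1795 ± 219 normalized counts in bud 6 and 181 ± 39.0 in bud 2 (SD, n = 3 each). Exceptions, named after their values were seen, were a P4-type cyclin (Scf01305g00027.1, log2 difference -3.32 ± 0.28), MAP70-5 (Scf01544g00022.1, -2.44 ± 0.44) and tubulin beta-1 (Scf00395g00513.1, -1.63 ± 0.14), all called lower. A cyclin-dependent kinase inhibitor (Scf00938g00430.1), a class that slows the cycle, had 569, 532 and 454 normalized counts in bud 6, against 791, 889.8 and 879.6 in bud 2, which does not pass 2-fold (log2 difference -0.72 ± 0.18, adjusted p = 0.00114).

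All 12 enzymes that modify chromatin were called higher in bud 6 (median 2.43). The gene annotated DNA (cytosine-5)-methyltransferase 3 (Scf00062g00201.1), of the chromomethylase type in Arabidopsis naming, had 28313, 37443 and 36255 normalized counts in bud 6, against 1533, 2593 and 2569.9 in bud 2. Its log2 difference was 3.96 ± 0.32 (adjusted p = 1.7e-09). DNA (cytosine-5)-methyltransferase 1 (Scf00441g00015.1), which copies methylation onto new DNA, averaged 6802 ± 887 normalized counts in bud 6 and 667 ± 66.8 in bud 2 (SD, n = 3 each). The histone methyltransferase ATXR6 (Scf00618g00224.1), a replication-linked enzyme in Arabidopsis, averaged 740.3 ± 126 normalized counts in bud 6 and 75.3 ± 17.9 in bud 2 (SD, n = 3 each). The E(z)-type histone methyltransferase (Scf00549g00018.1), the catalytic part of a Polycomb complex, averaged 1279 ± 102 normalized counts in bud 6 and 183 ± 17.9 in bud 2 (SD, n = 3 each). Both histone methyltransferases were named after their values were seen.

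Ribosome genes were mostly higher in bud 6, with smaller medians than the lists of replication and mitosis. Of 75 tested genes of the cytosolic ribosome (76 listed), 71 were called higher and 3 lower, with a median of 1.52. The acidic protein P0 (Scf01313g00116.1), part of the ribosomal stalk, had 69552, 87132 and 88150.1 normalized counts in bud 6, against 25685, 30766 and 28074 in bud 2. Its difference was 1.53 ± 0.14 (adjusted p = 4.73e-09). The whole list held 2.65%, 3.25% and 3.11% of normalized counts in the 3 bud 6 libraries, against 0.984%, 1.14% and 1.03% in the 3 bud 2 libraries, a ratio of 2.85. Ribosomal protein S26-2 (Scf00131g01512.1) had 4994, 6523 and 6419 normalized counts in bud 6, against 2642, 2910.3 and 3417 in bud 2 and just missed the 2-fold limit at 1.00 ± 0.14.

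The 3 members of the cytosolic ribosome list called lower were annotated L18ae family (Scf00498g00524.1), L6 (Scf00751g00221.1) and S3a (Scf00328g00827.1). Their place in the list rests on the description, and whether each encodes a part of the ribosome was not tested. The L18ae-family gene had 10.3, 2.27 and 4.28 normalized counts in bud 6, against 158, 119.9 and 108 in bud 2. The L6 gene had 88.0, 44.7 and 68.3 normalized counts in bud 6, against 1549, 1765 and 1085 in bud 2. The S3a gene had 66.9, 39.0 and 68.6 normalized counts in bud 6, against 782, 676 and 831 in bud 2. An S27-2 gene (Scf00207g00234.1) went the other way, with 494, 816 and 569 normalized counts in bud 6, against 33.5, 46.3 and 9.69 in bud 2. All 20 genes of ribosome assembly and the nucleolus were called higher (median 1.93). Nucleolar protein 58 (Scf00071g02312.1), a core protein of the particles that modify ribosomal RNA, had 17972, 22514 and 21702 normalized counts in bud 6, against 5341, 5881 and 4299.8 in bud 2. In the plastid ribosome 9 of 11 genes were called higher and none lower (median 1.78), including 50S protein L21 (Scf00268g01132.1) with 14361, 15187 and 18723 normalized counts in bud 6, against 3774, 4228 and 4692 in bud 2.

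**Figure D3:**
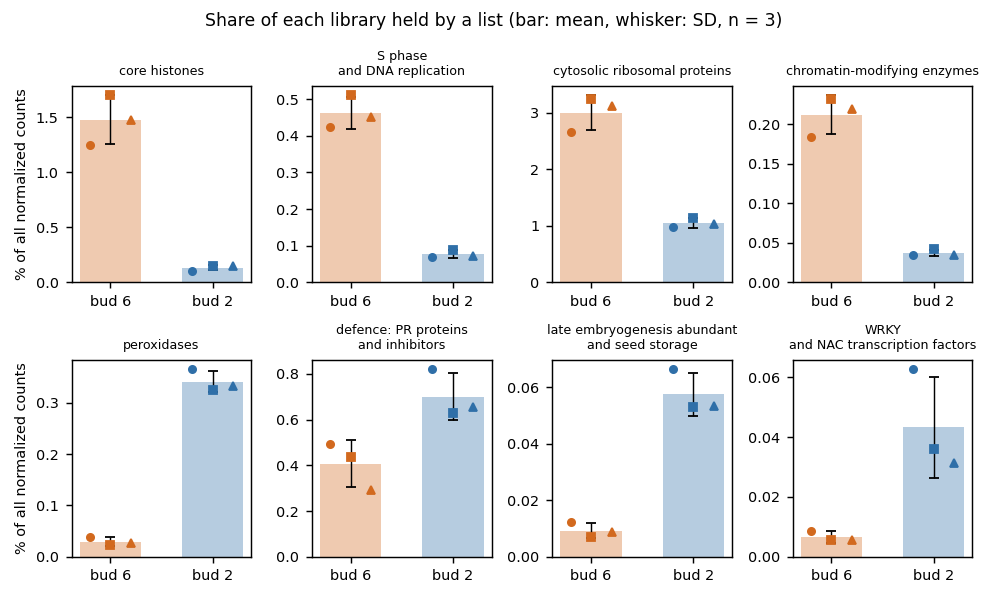
Percent of all normalized counts held by 8 lists in each library of bud 6 (orange, left) and bud 2 (blue, right); points are libraries, bars means and whiskers SD (n = 3 each), on linear axes from 0. Core histones held 1.48% in bud 6 and 0.135% in bud 2, and peroxidases held 0.0295% in bud 6 and 0.341% in bud 2.

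Genes that regulate meristems and organ growth were split, with 12 of 29 called higher and 12 called lower. The 3 growth-regulating factors and the 4 SPL factors of the list were all called higher, and both LSH10 genes and both ovate family genes were called lower, groupings made after their values were seen. Protodermal factor 1 (Scf00807g00024.1), an epidermal gene of the shoot tip, had 56186, 62279 and 62725 normalized counts in bud 6, against 8995, 11987 and 7931 in bud 2. The libraries did not overlap, and the difference was 2.67 ± 0.16 (adjusted p = 2.25e-11). An SPL10 gene (Scf00001g00534.1), an age-related factor in Arabidopsis, averaged 985 ± 85.7 normalized counts in bud 6 and 52.8 ± 23.9 in bud 2 (SD, n = 3 each). It was named after its values were seen, as were the genes of the next paragraph other than LSH10 and mini zinc finger 1.

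Both genes annotated Transcription factor CYCLOIDEA, the TCP class to which the bud outgrowth repressor BRANCHED1 of Arabidopsis belongs, were called lower. One (Scf00015g00721.1) had 299.8, 319 and 256 normalized counts in bud 6, against 1873, 2012 and 1669.5 in bud 2, and the other (Scf00013g00917.1) had 126, 172 and 169 normalized counts in bud 6, against 409, 535 and 606 in bud 2. Their differences were -2.67 ± 0.24 and -1.72 ± 0.25. Protein LSH10 (Scf00111g01424.1), of a family that acts at organ boundaries, had 0, 2.28 and 2.06 normalized counts in bud 6, against 294, 492 and 625 in bud 2. Mini zinc finger 1 (Scf00274g00617.1), a small protein that can block zinc finger homeodomain partners, had 7.27, 7.26 and 6.21 normalized counts in bud 6, against 773, 1034 and 1015 in bud 2. WUSCHEL-related homeobox 4 (Scf00882g00218.1), a regulator of vascular cambium, averaged 335 ± 76.9 normalized counts in bud 6 and 982 ± 215 in bud 2 (SD, n = 3 each).

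Markers of tissue within the excised buds moved in several directions. The growth and meristem list held 0.206%, 0.222% and 0.208% of normalized counts in the 3 bud 6 libraries, against 0.0777%, 0.0894% and 0.0666% in the 3 bud 2 libraries, with no member at 0 in every library of a bud. This sum leans on the epidermal gene protodermal factor 1, which averaged 60396 normalized counts in bud 6 and 9638 in bud 2. The list's median was -0.53, with 12 of 29 called higher and 12 lower. In the cuticle and epidermis list 3 of 13 were called higher and 7 lower, while the list's sum was 0.150%, 0.159% and 0.152% of normalized counts in the 3 bud 6 libraries, against 0.0535%, 0.0547% and 0.0463% in the 3 bud 2 libraries. That sum includes protodermal factor 1 again, which made up most of it in bud 6. The other members of the cuticle and epidermis list together were lower in bud 6 than in bud 2. In the photosynthesis list 3 of 14 were called higher and 1 lower, and it held 0.288%, 0.250% and 0.344% of normalized counts in the 3 bud 6 libraries, against 0.365%, 0.355% and 0.465% in the 3 bud 2 libraries. In the lignin and secondary wall list 7 of 24 tested (28 listed) were called higher and 10 lower, and it held 0.0315%, 0.0291% and 0.0310% of normalized counts in the 3 bud 6 libraries, against 0.0668%, 0.0627% and 0.0615% in the 3 bud 2 libraries, with 1 member at 0 in all bud 6 libraries. The difference in this sum leans on cinnamyl alcohol dehydrogenase 5, which averaged 1615 normalized counts in bud 6 and 14591 in bud 2. The lignin list's median of -0.22 turned to 0.12 under quantile normalization. Late embryogenesis abundant (LEA) and seed storage genes are described further on. The part of tissue make-up in the gene differences was not tested.

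Cell wall genes were mostly lower in bud 6, with 22 of 30 wall-loosening members called lower, 5 higher and a median of -2.24. Wall-loosening proteins such as expansins and xyloglucan endotransglucosylase/hydrolases (XTHs) act on the wall during expansion and remodelling. XTH32 (Scf00892g00009.1) had 12.9, 15.0 and 25.3 normalized counts in bud 6, against 10068, 18129 and 12231 in bud 2. Expansin B2 (Scf00271g00834.1) had 15.6, 10.2 and 29.5 normalized counts in bud 6, against 3895, 9681 and 8919 in bud 2. Neither gene overlapped between the buds, and the differences were -9.51 ± 0.60 and -8.61 ± 0.66 (adjusted p = 5.97e-11 and 7.73e-10). The 5 members called higher, named after their values were seen, were 2 endoglucanase 17 genes (Scf00001g00371.1 and Scf00140g01336.1), beta-galactosidase 3 (Scf00189g00117.1) and 2 pectin lyase-like genes (Scf00174g00026.1 and Scf00074g01824.1). The first endoglucanase had 7336, 8161 and 5952 normalized counts in bud 6, against 936, 1070.3 and 561 in bud 2.

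Peroxidases of the secreted superfamily, which cross-link wall polymers and produce or use hydrogen peroxide, had the lowest median of the 36 lists, -3.93. Of 16 tested (17 listed), 15 were called lower and none higher. The member with the highest mean (Scf01328g00009.1) had 4033, 3111 and 3399 normalized counts in bud 6, against 56418, 53216 and 59481 in bud 2. Every bud 6 library was below every bud 2 library, with a log2 difference of -4.01 ± 0.18 (adjusted p = 1.04e-12). A second gene (Scf00732g00451.1) had 160.0, 103 and 67.7 normalized counts in bud 6, against 16473, 14225 and 18405 in bud 2. The list held 0.0385%, 0.0230% and 0.0270% of normalized counts in the 3 bud 6 libraries, against 0.365%, 0.325% and 0.333% in the 3 bud 2 libraries, 11.6 times less in bud 6. A peroxidase outside the list (Scf00064g00738.1) was among the 10 described genes with the largest rise, with 137, 160.4 and 136 normalized counts in bud 6, against 2.78, 0.921 and 9.58 in bud 2.

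Lignin genes did not share one direction. Cinnamyl alcohol dehydrogenase 5 (Scf00016g02329.1), the last step of monolignol synthesis, had 1801, 1418 and 1626 normalized counts in bud 6, against 15057, 15646 and 13070.2 in bud 2, a difference of -3.18 ± 0.11 (adjusted p = 1.44e-13). Dirigent protein 6 (Scf00074g01513.1), of a family that guides the coupling of lignans, had 49.8, 12.2 and 19.3 normalized counts in bud 6, against 2800.2, 1869 and 2887 in bud 2. A VND6-type NAC factor (Scf00444g00851.1), a switch for xylem vessels in Arabidopsis and named after its values were seen, was called higher with 813, 984 and 948 normalized counts in bud 6, against 339, 302 and 297 in bud 2.

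Epidermal lipid genes split as well. GDSL esterase/lipase 1 (Scf00688g00427.1) had 13.9, 8.01 and 5.28 normalized counts in bud 6, against 2337, 1568 and 1733 in bud 2, and a non-specific lipid-transfer protein (Scf00775g00611.1) had 0, 0 and 1.12 normalized counts in bud 6, against 349, 352 and 152 in bud 2. KCS6 (Scf00382g00518.1), an elongase of wax synthesis in Arabidopsis, averaged 252 ± 39.2 normalized counts in bud 6 and 784 ± 101 in bud 2 (SD, n = 3 each). A further pair of GDSL genes (Scf00269g01617.1 and Scf01012g00236.1) were called higher, by 2.70 ± 0.19 and 2.83 ± 0.18. KCS6 and these GDSL genes were named after their values were seen.

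Defence genes were mostly lower in bud 6, with exceptions among the proteinase inhibitors. Of 32 members 19 were called lower and 8 higher, and the median was -3.03. A thaumatin-type pathogenesis-related protein (Scf00714g10016.1) had 80.0, 18.2 and 33.9 normalized counts in bud 6, against 25154, 21622 and 17750.4 in bud 2. The glucan endo-1,3-beta-glucosidase B (Scf00451g00323.1), which cuts fungal and callose glucans, had 69.0, 26.0 and 22.2 normalized counts in bud 6, against 21609, 14596 and 13136 in bud 2. Neither gene overlapped, and the differences were -9.13 ± 0.47 and -8.83 ± 0.51 (adjusted p = 4.61e-12 and 2.06e-11). Acidic endochitinase (Scf00403g00840.1, named after its values were seen) averaged 412 ± 98.9 normalized counts in bud 6 and 72261 ± 23095 in bud 2 (SD, n = 3 each). Proteinase inhibitor type-2 (Scf00391g00728.1), which protects tissue from insect digestion, went the other way with 111888, 92647 and 53266 normalized counts in bud 6, against 7336, 9124 and 5789 in bud 2. It was called higher by 3.49 ± 0.25 (adjusted p = 2.74e-10). A type-1 proteinase inhibitor, inhibitor I-B (Scf00714g00217.1, also named after its values were seen), had 13287, 8222 and 7399.5 normalized counts in bud 6, against 81623, 81895 and 65663 in bud 2.

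Stress-linked transcription factors were lower in bud 6. Of 16 WRKY and NAC factors tested (19 listed), 13 were called lower and 1 higher, with a median of -3.83. WRKY33 (Scf00055g01910.1), a defence regulator in Arabidopsis, had 253, 181 and 164 normalized counts in bud 6, against 4107, 2117 and 2119.6 in bud 2. The heat stress factor HSFB4 (Scf00450g00422.1) had 38.9, 24.9 and 33.6 normalized counts in bud 6, against 2328, 1821 and 1438 in bud 2. It belongs to a list of which 5 of 9 tested (10 listed) were called lower and none higher. Heat shock proteins themselves were called in both directions, with 6 of 34 tested (43 listed) called higher, 9 lower and a median of 0.27. Their sum was higher in bud 6, at 0.248%, 0.264% and 0.278% of normalized counts, against 0.151%, 0.164% and 0.152% in bud 2. HSP90.1 (Scf00553g00114.1) had 16242, 16263 and 16596 normalized counts in bud 6, against 10655, 11539 and 12884 in bud 2, which did not pass 2-fold, while HSP70-3 (Scf00760g00015.1) had 211, 104 and 98.3 normalized counts in bud 6, against 2490.1, 1976 and 1687 in bud 2.

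Storage, senescence and dormancy genes were lower in bud 6. LEA and seed storage genes had 16 of 17 tested (21 listed) called lower and none higher, with a median of -2.99, and held 0.0122%, 0.00689% and 0.00863% of normalized counts in the 3 bud 6 libraries, against 0.0664%, 0.0530% and 0.0533% in the 3 bud 2 libraries. Of the 21 listed, 2 were at 0 in all bud 6 libraries and none in all bud 2 libraries. Vicilin (Scf00092g00216.1), a seed storage globulin, had 12.4, 2.20 and 5.16 normalized counts in bud 6, against 3712, 814 and 1884 in bud 2. The bud 2 libraries varied widely for vicilin but stayed far above bud 6. The vicilin difference was -8.12 ± 1.01 (adjusted p = 4.94e-07).

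Among senescence and proteolysis genes 14 of 17 tested (18 listed) were called lower and none higher (median -2.06). The dormancy and carbon starvation markers had 8 of 9 called lower and none higher (median -2.41). The dormancy/auxin-associated gene (Scf00037g01327.1), a relative of DRM1 that is high in paused buds of several species, had 4923, 4482 and 4021 normalized counts in bud 6, against 23661, 22528 and 25037 in bud 2. The difference was -2.41 ± 0.13 (adjusted p = 1.23e-11). Asparagine synthetase (Scf00540g00013.1, named after its values were seen), which stores nitrogen when sugar is short, had 354, 95.7 and 234 normalized counts in bud 6, against 1792, 4036 and 5533 in bud 2. The member with YGL and LRDR motifs that was not called (Scf01412g00012.1) had 4619.6, 9554 and 6020.1 normalized counts in bud 6, against 3506, 7823 and 7881 in bud 2.

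The list of sugar transport and sucrose cleavage had no member called higher. Of 23 tested (24 listed) 19 were called lower, and the median was -2.68. These counts are not of uptake and cleavage alone, since the list also holds genes annotated invertase/pectin methylesterase inhibitor superfamily. One of them (Scf00054g02318.1) had the highest mean of the list, averaging 1700.0 normalized counts in bud 6 and 6763 in bud 2. Another (Scf00427g00114.1) averaged 32.5 in bud 6 and 632 in bud 2. Sugar transport protein 13 (Scf00437g00320.1), a hexose importer, had 70.1, 58.0 and 83.8 normalized counts in bud 6, against 5028, 3993 and 4419.6 in bud 2, a difference of -5.98 ± 0.36 (adjusted p = 2.82e-11). Sucrose synthase 4 (Scf00928g00232.1, named after its values were seen), which splits sucrose, averaged 477 ± 183 normalized counts in bud 6 and 5778 ± 541 in bud 2 (SD, n = 3 each). A neutral invertase (Scf00357g00729.1) had 4057, 1527 and 807 normalized counts in bud 6, against 2076, 2897 and 1876 in bud 2, and its buds overlapped. The replicate 1 library of bud 6 was the highest of the 6 for that gene.

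Related sugar lists were smaller. In trehalose phosphate and SnRK1 signalling, which reports sugar status, 5 of 8 were called lower and 1 higher (median -1.17). The gamma 1 regulatory subunit of SnRK1 (Scf00089g00622.1) had 410.0, 365 and 399 normalized counts in bud 6, against 1242, 1784 and 2485 in bud 2. In the raffinose family 4 of 6 tested (8 listed) were called lower and 1 higher, and 2 raffinose synthase genes went opposite ways. One (Scf00089g01521.1) had 171, 233 and 138 normalized counts in bud 6, against 7.49, 2.68 and 10.5 in bud 2, whereas the other (Scf00198g00212.1) had 97.8, 99.7 and 68.1 normalized counts in bud 6, against 1104, 718 and 602 in bud 2. Starch genes were mostly not called (1 of 10 higher, 2 lower), with granule-bound starch synthase 1 (Scf00074g00132.1) at 17483, 12131 and 12217 normalized counts in bud 6, against 20984, 20064 and 20974 in bud 2. The breakdown enzyme alpha-amylase-like 2 (Scf00174g00137.1) had 828, 704 and 695 normalized counts in bud 6, against 3642, 3753 and 3675 in bud 2.

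Transporters of nitrogen compounds were lower in bud 6 in 20 of 24 tested (25 listed), with 1 higher and a median of -2.56. A gene annotated as NRT1/PTR family 7.3 (Scf00102g00628.1), a nitrate transporter class, had 44.5, 30.1 and 34.8 normalized counts in bud 6, against 4117, 3636 and 1662 in bud 2. The NRT1/PTR family 6.3 gene (Scf00002g00108.1), the nitrate transceptor of Arabidopsis, had 2874, 2839 and 2855 normalized counts in bud 6, against 16196, 14386 and 13009 in bud 2. All bud 6 libraries were below all bud 2 libraries, with a log2 difference of -2.34 ± 0.16 (adjusted p = 1.17e-10).

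Phosphate starvation genes were also lower in part, although all plants had high P. Of 29 tested (35 listed) 13 were called lower and none higher (median -0.91), and 16 were not called. Purple acid phosphatase 27 (Scf00046g00119.1), which frees phosphate from organic compounds, had 13.7, 23.4 and 14.8 normalized counts in bud 6, against 6192, 6977 and 8561 in bud 2. A phosphate transporter 1 gene (Scf00680g00638.1) had 2.55, 0 and 1.07 normalized counts in bud 6, against 341, 276 and 269 in bud 2. Purple acid phosphatase 10 (Scf00016g00349.1) had the highest mean of the list and overlapped between buds, with 10687, 9003 and 8569 normalized counts in bud 6, against 8688, 11757 and 17416 in bud 2. The classic starvation reporters SPX1 (Scf01269g00014.1 and Scf00944g00034.1) and SPX3 (Scf00803g00014.1) were not called, at -0.91 ± 0.37, -0.97 ± 0.37 and -0.42 ± 0.36. The SPX genes were named after their values were seen.

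Auxin genes were divided, with 7 of 15 tested (16 listed) called higher and 6 lower. The member with the highest mean, called lower, is the dormancy/auxin-associated gene (Scf00037g01327.1) already counted among the dormancy markers. Tryptophan aminotransferase related 2 (Scf00689g00027.1), an enzyme of auxin synthesis, had 519.7, 691 and 658 normalized counts in bud 6, against 1.37, 3.64 and 0 in bud 2. It had the largest rise among described genes, 8.12 ± 0.69 on the log2(value + 1) scale (adjusted p = 2.65e-09). A GH3 gene (Scf00007g01617.1), of a family that conjugates auxin to amino acids, had 174, 91.6 and 134 normalized counts in bud 6, against 2141, 2154 and 3624 in bud 2. The carriers annotated auxin transporter-like (Scf00042g02726.1 and Scf00362g00846.1) and ARF19 (Scf00287g00193.1), named after their values were seen, were called higher by 2.85 ± 0.34, 2.23 ± 0.14 and 3.19 ± 0.21.

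The lists of other hormones leaned to bud 2. All 4 gibberellin genes were called lower (median -2.89), and ent-kaurenoic acid hydroxylase 2 (Scf00312g00017.1), a step of gibberellin synthesis, had 5841, 4011 and 4073 normalized counts in bud 6, against 22842, 29369 and 41581 in bud 2. Gibberellin 2-oxidase (Scf00111g00923.1), which inactivates gibberellin, had 93.8, 112 and 131 normalized counts in bud 6, against 789, 1299.7 and 986 in bud 2. Genes of synthesis and of inactivation were both lower. In the cytokinin list 3 of 4 were called lower and 1 higher. That lean is narrow: 1 was called higher and 2 lower under quantile normalization, and 1 and 1 in plants moved to low P. In experiment 3 the counts were 0 and 1 after the move to high P, and 1 and 1 in constant low P. Cytokinin dehydrogenase 1 (Scf01296g00111.1), which degrades cytokinin, averaged 22.8 ± 5.48 normalized counts in bud 6 and 1256 ± 311 in bud 2 (SD, n = 3 each). Its difference was -5.72 ± 0.24 (adjusted p = 6.13e-13).

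Ethylene and ABA genes were mostly lower in bud 6. For ethylene, 13 of 15 were called lower and none higher (median -1.78). The ethylene response factor ERF1B (Scf01560g00009.1), named after its values were seen, had 6.52, 11.9 and 12.4 normalized counts in bud 6, against 281, 321 and 217 in bud 2. For ABA, 16 of 21 were called lower and 1 higher (median -2.14). The kinase SAPK2 (Scf00160g01225.1), of the SnRK2 class that carries the ABA signal, had 15.7, 5.82 and 4.13 normalized counts in bud 6, against 794, 703 and 731 in bud 2. A protein phosphatase 2C gene (Scf00264g00414.1), of the class that restrains SnRK2 kinases, had 64.5, 47.5 and 40.0 normalized counts in bud 6, against 1532, 1070.2 and 909.7 in bud 2. One PYR1-type receptor gene (Scf00009g00132.1), named after its values were seen, was the member called higher, with 627, 659 and 627 normalized counts in bud 6, against 216, 253 and 368 in bud 2.

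The jasmonate list was small and depended on replicate 1. Of 7 members 3 were called lower and 1 higher (median -2.12). Lipoxygenase 2 (Scf00895g00019.1), the first step of jasmonate synthesis, had 614, 142 and 129.8 normalized counts in bud 6, against 5824, 5931 and 8562 in bud 2. The replicate 1 library of bud 6 was the highest of that bud, yet below all of bud 2. JAZ1 (Scf00928g00130.1), a repressor that jasmonate itself induces, had 9875, 269 and 132 normalized counts in bud 6, against 8196, 1944 and 1809 in bud 2. It overlapped between the buds and was not called (log2 difference -2.12 ± 1.24, adjusted p = 0.13). Without the replicate 1 library of bud 6 the JAZ1 difference was -4.02 (adjusted p = 0.00174) and 5 of the 7 genes were called lower, and with the replicate number as a block JAZ1 was also called (-2.12, adjusted p = 0.000706). NAC102 (Scf00842g00211.1), a stress-linked factor that was not called, was likewise highest in replicate 1 of both buds, with 1019, 138 and 102 normalized counts in bud 6, against 1845, 177 and 281 in bud 2. Oxophytodienoate reductase 3 (Scf00088g01321.1, named after its values were seen), a later step of synthesis, had 5756, 6539.9 and 5386 normalized counts in bud 6, against 464, 612 and 426 in bud 2. It was called higher by 3.57 ± 0.21.

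Flavonoid genes were divided, with 6 of 16 called higher, 4 lower and a median of 0.11. Chalcone synthase B (Scf00164g00313.1), an entry enzyme, had 0, 0 and 1.02 normalized counts in bud 6, against 2447, 4704 and 4541 in bud 2, whereas the flower-type chalcone synthase A (Scf00047g01225.1, named after its values were seen) overlapped between the buds and was not called, with 2238, 3994 and 2002 normalized counts in bud 6, against 2947, 3068 and 3085 in bud 2. Flavonol synthase 1 (Scf00927g00035.1), which makes flavonols, had 11668, 14514 and 8883 normalized counts in bud 6, against 4642, 6399 and 5404 in bud 2 and was called higher by 1.08 ± 0.16 (adjusted p = 4.36e-06). That call is narrow: the difference was 0.95 under quantile normalization. It was between 0.905 and 0.962 without replicate 2 of bud 6, without replicate 1 of bud 2 or without all high P libraries of replicate 1.

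Water channels and light-harvesting genes were less one-sided. Of 7 aquaporins 4 were called higher and 2 lower (median 2.10). A plasma membrane intrinsic protein 2 gene (Scf00362g00538.1), a water channel of the cell surface, had 26642, 27984 and 26593 normalized counts in bud 6, against 5219, 6296 and 7677 in bud 2, while another (Scf00270g00816.1) had 2274, 2162 and 2240.1 normalized counts in bud 6, against 10528, 14227 and 10685 in bud 2. Their differences were 2.10 ± 0.16 and -2.39 ± 0.13. Chlorophyll a-b binding protein 25 (Scf00825g00004.1), an antenna protein with the highest mean of its list, had 31729, 26745 and 33563 normalized counts in bud 6, against 35247, 30334 and 35000.0 in bud 2, and its buds overlapped. Chlorophyll a-b binding protein 13 (Scf00242g00092.1) was the 1 photosynthesis member called lower, with 1269, 821 and 1241 normalized counts in bud 6, against 4975, 5124 and 6207 in bud 2.

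**Figure D4:**
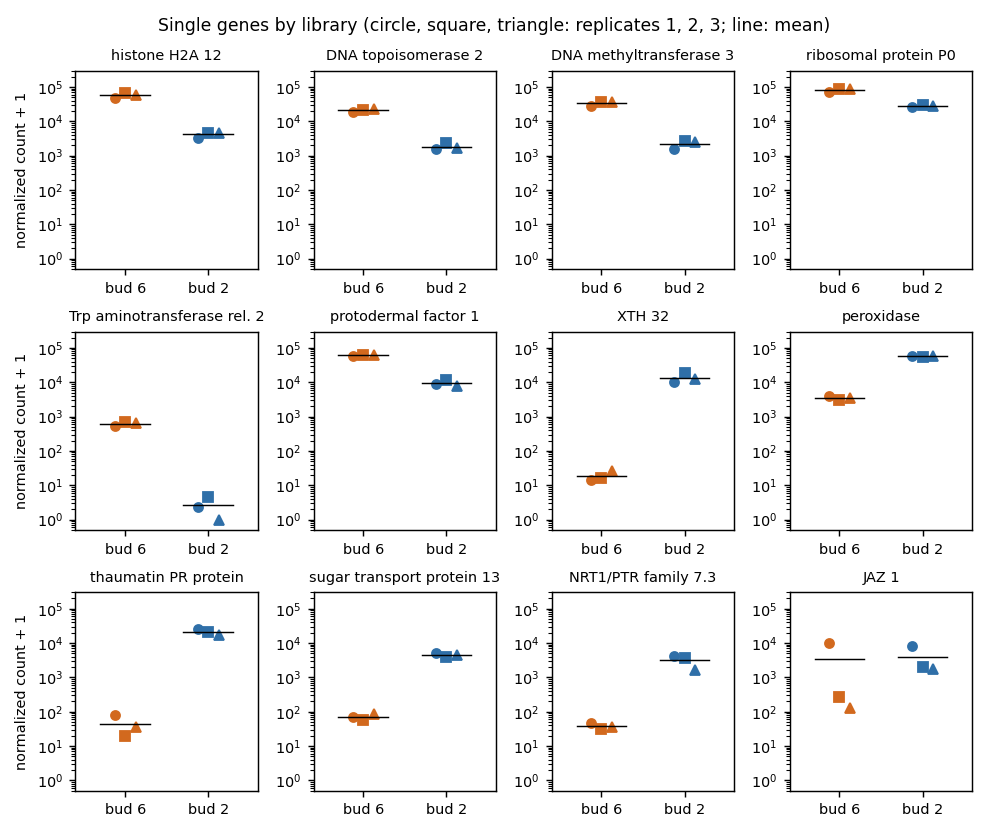
Normalized count plus 1 on a log axis for 12 genes, with the 3 libraries of bud 6 on the left (orange) and of bud 2 on the right (blue); circles, squares and triangles are replicates 1, 2 and 3, and lines are means. The first 11 genes had no overlap between buds, and JAZ1 is shown because its replicate 1 library of bud 6, at 9875, was above the other bud 6 libraries at 269 and 132.

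The 10 largest rises among described genes included 4 histone genes and 2 transporters. Of the called genes that averaged 100 or more in bud 6 and were higher there, 1095 of 3143 had a description, and 2 of the 10 largest rises of all had one. An ABC-2 type transporter (Scf00263g00086.1) had 118, 179 and 136 normalized counts in bud 6, against 2.07, 0.903 and 0 in bud 2. An aluminum-activated malate transporter 1 gene (Scf00624g00918.1) had 135, 167 and 123 normalized counts in bud 6, against 2.75, 5.43 and 4.20 in bud 2. A leucine-rich repeat receptor-like kinase (Scf00035g00315.1), of a family that senses peptides and other signals, had 2704, 3894 and 2663 normalized counts in bud 6, against 133, 162 and 69.1 in bud 2. A U-box protein gene (Scf00276g00123.1) had 642, 844 and 647 normalized counts in bud 6, against 19.0, 29.4 and 26.5 in bud 2. The groups did not overlap for these 4 genes, which were picked for their large differences.

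The largest falls reached far deeper. Of the genes called lower that averaged 100 or more in bud 2, 1255 of 4056 had a description, including 9 of the 10 largest falls. Ectonucleoside triphosphate diphosphohydrolase 5 (Scf00378g00010.1), which removes phosphate from nucleotides, had 0, 0 and 5.29 normalized counts in bud 6, against 25752, 23721 and 27479.9 in bud 2. An HAD-type acid phosphatase (Scf00207g01227.1) had 0, 0 and 2.21 normalized counts in bud 6, against 7489, 8079.8 and 12558 in bud 2. Hyoscyamine 6-dioxygenase (Scf00234g00412.1), named by likeness to an alkaloid enzyme, had 12.6, 2.29 and 16.8 normalized counts in bud 6, against 11142, 14088 and 12724 in bud 2. A UDP-glycosyltransferase (Scf00427g00031.1) had 1.25, 1.12 and 3.13 normalized counts in bud 6, against 3113, 3177 and 2083 in bud 2. With bud 6 values at or near 0 the size of such a fall depends on the pseudocount of 1, so the levels are given without a fold.

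Some genes were seen in one bud only. No gene had at least 100 normalized counts in all 3 bud 6 libraries and under 1 in all 3 bud 2 libraries, whereas 19 genes had the reverse, 11 of them described. All 19 were listed at 0 in every bud 6 library. A cysteine proteinase (Scf00483g00321.1), of a class that degrades protein during senescence and storage turnover, had 3032, 589 and 2053 in bud 2. Allene oxide synthase (Scf00684g00511.1), which makes jasmonate precursors, had 917, 533 and 847 in bud 2. Polyphenol oxidase F (Scf00445g00064.1), a browning enzyme, had 2175, 285 and 615 in bud 2, and germin-like protein 2 (Scf01000g00116.1) had 331, 634 and 304. The transcription factors among them were an AT-hook gene, AHL20 (Scf00024g00161.1), and a GATA-type gene (Scf00008g02027.1). At a limit of 50 the counts were 1 and 32, and with under 5 in the other bud they were 6 and 101.

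Buds 7 and 3 of the same high P plants were placed beside these values, without a test because they would share the bud 2 libraries. Bud 7 means lay near bud 6 and bud 3 means nearer to bud 2. Core histones held 1.25% of normalized counts in bud 7 and 0.134% in bud 3. Peroxidases held 0.0441% in bud 7 and 0.270% in bud 3. Topoisomerase 2 (Scf00744g00349.1) averaged 16939 in bud 7 and 1765 in bud 3. Single genes could differ from this. Chalcone synthase B (Scf00164g00313.1) averaged 513 in bud 3, far below its bud 2 mean of 3897, and the polyphenol oxidase F gene (Scf00445g00064.1) averaged 0.713 in bud 3 although it reached 1025 in bud 2.

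The same buds in plants moved from high to low P for 24 h give the same contrast in other libraries. In those plants 3555 genes (15.9%) were higher in bud 6 and 4872 (21.8%) lower. Of the genes called here, 87.3% of the higher and 87.6% of the lower were called the same way there, or 91.7% and 94.3% of the genes called there, and none the opposite way. The interaction, which asks whether the difference between buds depended on phosphate, called 0 genes by limma after adjustment, with a smallest adjusted p of 0.394 and 742 genes at an unadjusted p below 0.05. Core histones had a median of 3.97 in the plants moved to low P and 4.06 here, peroxidases had -2.91 there and -3.93 here, and the flavonoid list had -0.66 there and 0.11 here.

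In experiment 3, where plants began in low P, fewer genes were called. The tables were normalized apart, so the values are given side by side and their difference was not tested. By the study's account, experiment 3 was also sequenced more deeply and with longer reads. After a move to high P, 2954 genes (13.1%) were higher in bud 6 and 4256 (18.8%) lower, and in constant low P 2841 (12.6%) and 3022 (13.4%). Of the genes tested in both tables and called here, 67.2% of the higher and 72.4% of the lower were called alike after the move to high P, which is 86.9% and 92.1% of the genes called there, and 9 were called the opposite way. In constant low P the shares were 57.2% and 50.1% of the genes called here, 76.8% and 91.4% of those called there, with 38 opposite.

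Core histones had medians of 2.46 after the move to high P and 2.53 in constant low P, against 4.06 here, and 43 and 40 of the 43 were called higher. Cytosolic ribosomal genes had medians of 1.33 and 1.15, with 69 and 60 of 76 called higher, so this list lay closer to its value of 1.52 here than the histones did to theirs. Peroxidases had medians of -1.76 and -1.34. Photosynthesis genes had a median of -0.19 here and medians of 0.45 and 1.36 in experiment 3, where 8 of 14 were called higher in constant low P. Heat shock proteins had a median of -1.41 after the move to high P, with 3 of 42 called higher and 17 lower, and water channels one of -0.12.

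**Figure D5:**
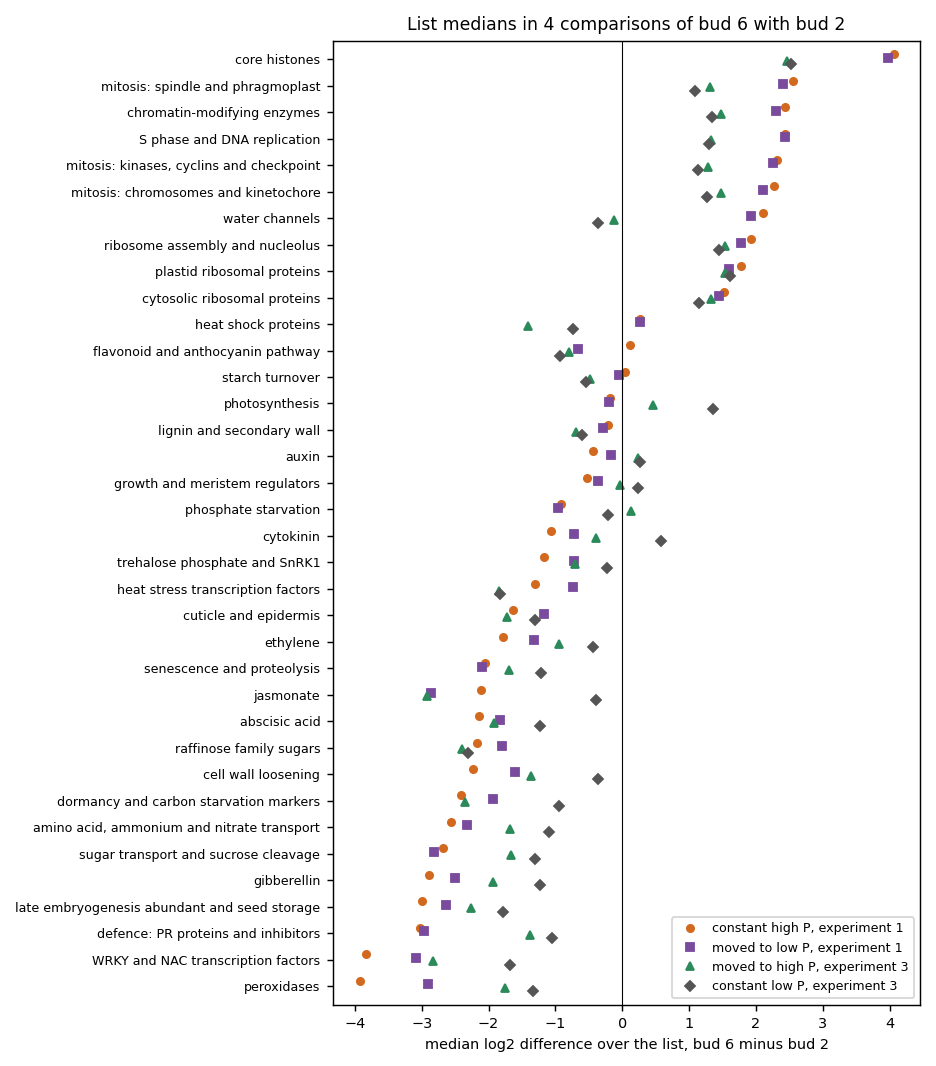
Median log2 difference between bud 6 and bud 2 over each of the 36 lists in 4 comparisons: constant high P (circles) and moved to low P (squares) in experiment 1, and moved to high P (triangles) and constant low P (diamonds) in experiment 3. Core histones read 4.06, 3.97, 2.46 and 2.53, and photosynthesis reads -0.19, -0.20, 0.45 and 1.36.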

How the data were processed

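Buds 2, 3, 6 and 7 were sequenced in 24 libraries of experiment 1 and 24 of experiment 3. The deposited signal values are DESeq2-normalized counts, for which the authors trimmed the reads with Trim Galore and quantified genes with Salmon on the Petunia axillaris genome. They are not whole reads, so the depth of each library cannot be read from them and no count model was run. The study reports deeper sequencing, longer reads and a later pipeline version for experiment 3 than for experiment 1. The tool was limma 3.58.1 (R 4.3.3), with a variance trend, on log2(value + 1), which understates changes of low genes. Each experiment was fitted with 8 group means over its 24 libraries, on genes averaging 10 or more (22363 of 34301 in experiment 1). The p-values measure spread between pools.

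Samples with the same replicate number deviated together (r between 0.15 and 0.283 for each number, against -0.204 to 0.029 for other numbers). The numbers come from the labels, which do not say what they share, so the fit was repeated with the number as a block. The block fits for low P and experiment 3 were added after the data had been seen. Other alternatives were pseudocounts, filters, scalings, precision weights, a 4-fold limit and leaving out libraries.

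The comparison, the lists and their members were chosen with earlier results of these data known. Named by rule were, in each list, the member with the highest mean, the uncalled member with the highest mean and the 2 called members with the largest difference that reached 100 on average in the higher bud, and over all genes the 10 described genes with the largest differences each way. Names and descriptions are the study's annotation of 3185 genes. The fit was tested on simulated data, and sequences were not used here.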

Additional observations from a re-analysis of the deposited data

Results flagged for a closer look

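For 6 of the genes named by rule, all 3 libraries of bud 6 lay on one side of bud 2 here and on the opposite side in experiment 3. The tables were normalized apart and the difference between experiments was not tested. In constant low P of experiment 3, chlorophyll a-b binding protein 13 (Scf00242g00092.1) had a log2 difference of 2.23, against -2.31 here, and an early light-induced protein (Scf00316g00328.1) had -1.54, against 1.53 here. In the same libraries alpha-galactosidase 1 (Scf00329g00431.1) had -0.558, a protein phosphatase 2C (Scf00086g00428.1) had 0.515 and histidine phosphotransfer protein 6 (Scf00434g00728.1) had 0.672, against 0.51, -0.58 and -1.08 here. Glucan endo-1,3-beta-glucosidase 13 (Scf00339g00086.1) had -0.233 after the move to high P and -1.03 in constant low P, against 0.53 here.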

How the results depend on the processing

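The counts of 3735 genes higher and 5248 lower ranged from 3603 to 3891 and from 5082 to 5387 when each library was left out in turn. They were 3848 and 5280 without the high P libraries of replicate 1, from all bud positions. List members called in either direction numbered between 614 and 635 when each library was left out. The counts were 3742 and 5300 with the replicate number as a block, and apart from JAZ1 the block changed no call of a named gene. A 4-fold limit, which is stricter by construction, left 1015 and 2951 genes. No gene named by rule that was called here changed direction under any alternative run. Uncalled ones did. The difference of an LEA gene (Scf00798g00322.1) was 0.51 under quantile normalization, against -0.85 as deposited, and that of Scf01412g00012.1 was -0.0037, against 0.10 as deposited. With libraries left out, singly or all high P ones of replicate 1, the differences ranged from -0.288 to 0.338 for Scf01412g00012.1, from -1.07 to 0.15 for Scf00357g00729.1, from -1.92 to 0.124 for Scf00842g00211.1 and from -0.184 to 0.0018 for Scf00202g00187.1. Of genes in one bud only, the counts for bud 6 and bud 2 were 1 and 32 at a minimum of 50, and 6 and 101 with under 5 in the other bud. For the plants moved to low P the leave-one-out ranges were 3478 to 3598 higher and 4779 to 4824 lower. In experiment 3 they were 2689 to 3073 and 4021 to 4272 after the move to high P, and 2696 to 2891 and 2703 to 3173 in constant low P. Quantile normalization gave 4948 higher and 4250 lower, with 3641 and 4210 of the calls shared. The cause was not tested. The signs of the starch and lignin medians turned under it, to -0.02 and 0.12.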
